A study of Mus musculus with 2 samples.

Results

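Of the genes measured in this single-nucleus RNA-seq of the mouse brainstem, 9 encode listed subunits of voltage-gated sodium channels, out of 25556 genes in all. They were chosen by name as the pore-forming alpha subunits *Scn1a*, *Scn2a*, *Scn3a*, *Scn7a*, *Scn8a* and *Scn9a* and the accessory beta subunits *Scn2b*, *Scn3b* and *Scn4b*, a rule that uses no measured value. The study compared 1 wildtype (WT) mouse with 1 heterozygous mouse (HET) that carried the *Scn1a* A1783V missense allele, a model of Dravet Syndrome. Both were untreated females at postnatal day 41 on a C57Bl6 background, and WTs were taken from the littermates of HETs. HETs came from a floxed *Scn1a* male and a Sox2-Cre female, a driver that is active in the early embryo, so the allele is not limited to a cell type. The labels do not say whether the WT mouse carried the Cre transgene. The comparison addresses how the transcripts of *Scn1a* stand beside those of the other subunits in each cell type, and whether they differ between the genotypes.

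Voltage-gated sodium channels open on depolarization and carry the inward current of the rising phase of the action potential. The alpha subunit forms the pore, and the beta subunits, which cross the membrane once, alter gating and bind to adhesion molecules. *Scn1a* encodes Nav1.1, whose loss of function causes Dravet Syndrome and which is best known in fast-spiking inhibitory neurons. *Scn2a* (Nav1.2) and *Scn8a* (Nav1.6) are the other main channels of adult central neurons, *Scn3a* (Nav1.3) is mostly embryonic, *Scn9a* (Nav1.7) is best known in sensory and sympathetic neurons, and *Scn7a* encodes the sodium-sensing channel Nax.

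The A1783V codon lies in the last coding exon of *Scn1a* (ENSMUSG00000064329), exon 27 of 27, on the minus strand of GRCm38 at chr2:66273566-66273568. The sequences below show it with its neighbours in the alpha subunit genes, to show how alike the altered stretch is across the family. They were read from the GENCODE transcripts of the same build, 5′ to 3′ on the coding strand, with the codon at the place of the altered alanine in capitals.
Scn1a, Scn2a, Scn3a and Scn9a: aacatgtacattGCTgtcatcctggag
Scn8a: aacatgtacattGCCatcatcttggag
Scn7a: aacatgtacattGTGttgatcatggag
All 27 bases of the window were the same in *Scn1a*, *Scn2a*, *Scn3a* and *Scn9a*. *Scn8a* matched *Scn1a* at 24 of them and *Scn7a* at 22. GCT and GCC are alanine codons, whereas the codon at this place in *Scn7a*, GTG, encodes valine. The codon lies 2785 bases before the end of the *Scn1a* transcript, and the deposited counts do not separate the alleles.

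The 2 libraries held 9259 WT and 9022 HET nuclei, with a median of 5456 and 5646 unique molecular identifiers (UMIs, each marking 1 captured RNA molecule) per nucleus. The clusters are those deposited by the authors, 16 in all and 9 of them neuronal, and both libraries had 30 or more nuclei in 12 of them. Neuronal clusters held 6118 WT and 5393 HET nuclei with 59282694 and 53272561 UMIs. By the fixed markers, neuron.5 was granule cell-like (*Gabra6*, *Zic1*, *Neurod1*) and neuron.7 serotonergic-like (*Tph2*, *Slc6a4*, *Fev*). The label of the micro cluster was in doubt, since a second deposited label called 52.1% of its nuclei neurons, and so was that of fibro, where it called 41.7% neurons. Several clusters came mostly from 1 library, with 42 WT and 332 HET nuclei in neuron.5 and 120 WT and 5 HET nuclei in neuron.6. The libraries shared 23 cell barcodes. Levels are given as UMIs per 1000000 UMIs of the same nuclei (CPM), with exact 95% Poisson intervals in parentheses, and genotypes are compared as log2 ratios of CPM, HET over WT, with exact conditional 95% intervals. These intervals hold counting error and nothing else. Each genotype is a single library, so no test was possible and differences between genotypes have no replicate check.

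In neuronal clusters, *Scn1a* transcripts were not lower in the HET than in the WT library. The level was 430 CPM (425 to 436) in WT, from 25516 UMIs, and 493 CPM (487 to 499) in HET, from 26261 UMIs, a log2 ratio of 0.20 (0.17 to 0.22) or 1.15-fold. Of the 6 neuronal clusters where both libraries had 30 or more nuclei, *Scn1a* was higher in HET in 5, and the interval lay above 0 in 4 and below 0 in none. The largest cluster, neuron.1, had 435 CPM in WT and 488 CPM in HET. The exception was the granule cell-like cluster neuron.5, with 464 CPM (364 to 584) in WT and 392 CPM (358 to 427) in HET, where the intervals overlap. At the finer level of 13 deposited subclusters, *Scn1a* was higher in HET in 11, with the interval above 0 in 10 and below 0 in none, and the log2 ratio ran from −0.14 to 0.38.

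The level of *Scn1a* ranged more widely over the clusters of a library than it differed between the genotypes within a cluster. In WT it was highest in neuron.3, at 520 CPM (486 to 556), followed by neuron.4, neuron.5, neuron.2, neuron.1 and micro, and each of these overlapped the next in its interval. A gap followed, since the micro cluster had 420 CPM (383 to 460) and the serotonergic-like cluster neuron.7 had 165 CPM (132 to 205). In HET, neuron.3 was also first, at 570 CPM (545 to 595). The gap there fell between micro, at 464 CPM (430 to 501), and neuron.5, with neuron.7 at 204 CPM (161 to 254). The small cluster epend.1, of 129 WT and 45 HET nuclei, had 151 CPM (116 to 192) in WT and 308 CPM (240 to 389) in HET. Its 2 intervals do not overlap. Among the 12 clusters with 30 or more nuclei per library, the lowest levels in both libraries were those of astro, at 61.5 CPM (51.4 to 73.0) and 66.5 CPM (56.9 to 77.2), and the intervals of oligo, at 75.6 and 73.5 CPM, overlap them. In the micro cluster, the 84 WT and 127 HET nuclei that the second label calls neurons had 623 and 583 CPM. The 41 WT and 67 HET nuclei that both labels call microglia had 61.1 and 188 CPM, from few UMIs. These microglia held 18 WT and 57 HET UMIs of the listed alpha subunits together. *Scn1a* took 27.8% (9.69 to 53.5) of them in WT and 47.4% (34.0 to 61.0) in HET. Nuclei labelled as neurons held 439 of the 464 WT and 606 of the 658 HET *Scn1a* UMIs of the micro cluster.

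**Figure D1:**
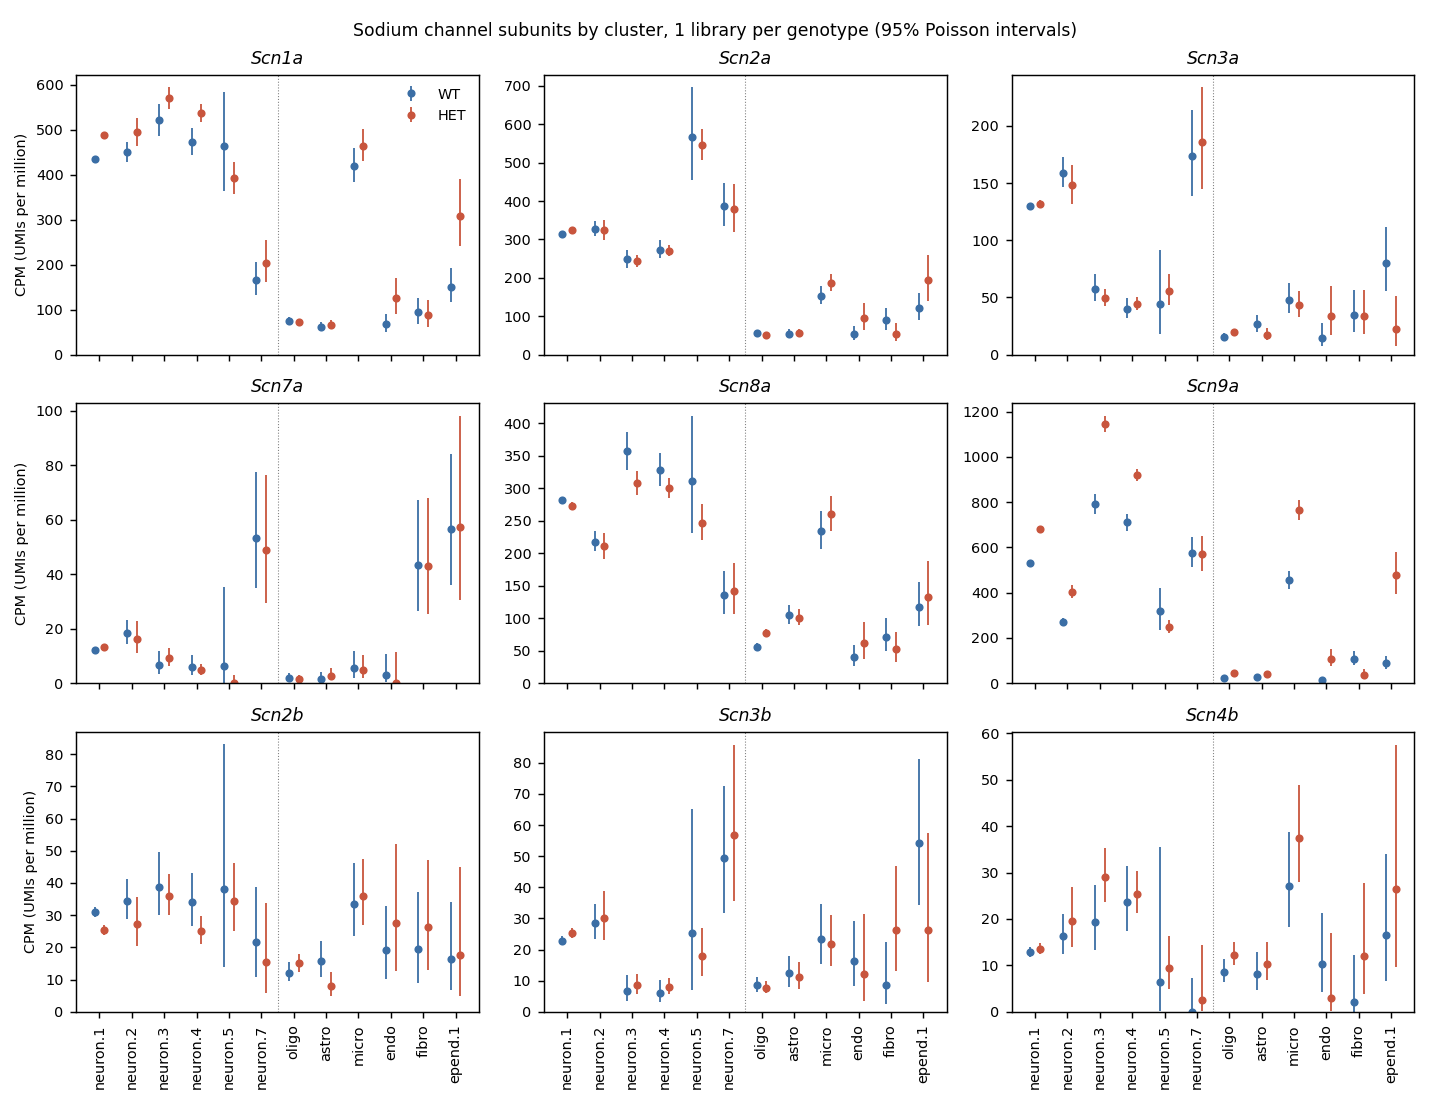
CPM of each subunit (vertical axis, linear, a different range in each panel) in the 12 clusters where both libraries had 30 or more nuclei (horizontal axis, neuronal clusters left of the dotted line), with WT in blue, HET in red and 95% Poisson intervals as bars. *Scn9a* in HET stands above WT in neuron.1 to neuron.4, *Scn2a* is highest in neuron.5, and *Scn7a* in neuron.7, fibro and epend.1.

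*Scn9a* was the subunit that differed most between the libraries in neuronal clusters. Its level was 517 CPM (511 to 522) in WT and 714 CPM (706 to 721) in HET, which is a log2 ratio of 0.47 (0.44 to 0.49) or 1.38-fold. In neuron.1 the values were 531 and 683 CPM, in neuron.2 272 and 404 CPM, in neuron.3 791 and 1143 CPM and in neuron.4 710 and 919 CPM, and in none of these did the intervals of WT and HET overlap. The granule cell-like neuron.5 had 318 and 249 CPM and the serotonergic-like neuron.7 had 575 and 569 CPM in WT and HET, with intervals that overlap in both clusters. Among the 13 subclusters, *Scn9a* was higher in HET in 11, with the interval above 0 in all 11 of them.

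*Scn2a* was close to equal in both libraries. In neuronal clusters it had 312 CPM (307 to 316) in WT and 320 CPM (315 to 325) in HET, which is a log2 ratio of 0.04 (0.01 to 0.07), and over the 6 clusters the ratio stayed between −0.05 and 0.05. Its order of clusters was unlike that of *Scn1a*, with the highest level in the granule cell-like neuron.5, at 566 CPM (454 to 696) in WT and 546 CPM (506 to 588) in HET, and the second highest in neuron.7, at 388 and 379 CPM. *Scn8a* also differed little, with 278 CPM (273 to 282) in WT and 274 CPM (270 to 279) in HET. It was lower in HET in 5 of 6 neuronal clusters, and the interval lay below 0 in neuron.1, with 282 and 273 CPM, and in neuron.3, with 357 and 308 CPM. The sign of its ratio over neuronal clusters, −0.02 (−0.05 to 0.01), turned to 0.08 when the median ratio of genes was set to 0.

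*Scn3a* was lower in HET over all neuronal clusters, at 157 CPM (154 to 161) in WT and 117 CPM (114 to 120) in HET, but not within the clusters. Its log2 ratio was −0.42 (−0.47 to −0.38) over neuronal clusters together, and 0.02 (−0.03 to 0.08) in neuron.1, with none of the 6 clusters having an interval above or below 0. Of the 13 subclusters, 3 had an interval below 0 and none had one above it. The cluster neuron.6 had 1275 CPM (1221 to 1330) of *Scn3a* in WT, far above the other clusters, and 1298 CPM (947 to 1736) in HET. Its 120 WT nuclei held 22.8% of the *Scn3a* UMIs of the WT neuronal clusters, and its 5 HET nuclei held 0.720% of those of HET. Without neuron.6, a setting chosen after its values were seen, the levels were 125 and 117 CPM in WT and HET, with a log2 ratio of −0.10. The difference over neuronal clusters moved with the number of neuron.6 nuclei in each library, and the mouse and the library cannot be told apart as its source.

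*Scn7a* was sparse, at 12.1 CPM (11.2 to 13.0) in WT and 12.2 CPM (11.3 to 13.2) in HET in neuronal clusters. It was higher in 3 small clusters, with 53.2 and 49.0 CPM in neuron.7, 56.5 and 57.2 CPM in epend.1 and 43.5 and 43.0 CPM in fibro, each from 13 to 27 UMIs per library. The 2 libraries gave nearly the same value in each of these 3 clusters, with intervals that overlap. In neuron.5 it had 1 UMI in WT and 0 in HET.

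Among the beta subunits, *Scn2b*, which links covalently to the alpha subunit, was the lower one in HET. It had 30.9 CPM (29.5 to 32.4) in WT and 26.4 CPM (25.1 to 27.8) in HET in neuronal clusters, a log2 ratio of −0.23 (−0.33 to −0.12). It was lower in HET in each of the 5 neuronal clusters with at least 20 of its UMIs, with the interval below 0 in 1. Of 12 subclusters with as many UMIs, 2 had an interval below 0 and 2 had a higher value in HET. *Scn4b*, the subunit linked to resurgent sodium current, was higher in HET, at 15.8 CPM (14.7 to 16.9) against 13.2 CPM (12.3 to 14.2), a log2 ratio of 0.25 (0.11 to 0.40). Within clusters its intervals all reached 0 or below, and in neuron.1 it had 12.9 and 13.6 CPM. *Scn3b*, a non-covalently bound subunit, had 23.6 CPM (22.4 to 24.9) in WT and 22.6 CPM (21.3 to 23.9) in HET, and these intervals overlap. *Scn3b* and *Scn4b* differed in where they were high among the neuronal clusters. *Scn3b* had 49.2 and 56.7 CPM in neuron.7 and 6.68 and 8.45 CPM in neuron.3, whereas *Scn4b* had 0 and 2.58 CPM in neuron.7, from 0 and 1 UMI, and 19.4 and 29.0 CPM in neuron.3.

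Since nuclear RNA holds unspliced transcripts, levels of different genes were ranked per length of the gene. Whether the counts include introns is not given in the sources used here, and this ranking has meaning only if they do. Per kb of gene span, *Scn9a* had the highest level in neuronal clusters, with 3.34 CPM per kb in WT and 4.61 in HET, followed by *Scn1a* with 2.53 and 2.90. *Scn2b* had 2.51 and 2.15, *Scn2a* 2.13 and 2.18, *Scn8a* 1.58 and 1.56 and *Scn3a* 1.42 and 1.06 CPM per kb. *Scn3b* followed with 1.05 and 1.01, *Scn4b* with 0.840 and 1.00 and *Scn7a* with 0.108 and 0.109 CPM per kb. On this scale the short beta gene *Scn2b*, spanning 12.3 kb, stood near *Scn1a*, which spans 170 kb, although *Scn2b* had 1832 UMIs in WT and 1408 in HET neuronal clusters and *Scn1a* 25516 and 26261.

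In neuronal clusters, 2 of the 9 subunits had a log2 ratio further than 0.322 from 0, *Scn9a* on the higher and *Scn3a* on the lower side in HET. Over all 15352 genes with at least 200 UMIs there, 39.5% were past this limit in either direction, 12.1% higher and 27.3% lower in HET, so the subunits were not past it more often than other genes. The ratio moved with gene length. Genes spanning under 10 kb had a median log2 ratio of −0.35, those of 10 to 50 kb −0.14, those of 50 to 100 kb −0.00, those of 100 to 200 kb 0.08 and those over 200 kb 0.15. The 6 alpha subunits span between 111 and 176 kb, where 15.1% of genes were past the same limit on the higher side and 6.46% on the lower side, and the beta subunits between 12.3 and 22.4 kb. The ratio of *Scn1a* lies inside the middle 50% of its length class, which ran from −0.07 to 0.22, and those of *Scn9a* and *Scn3a* lie outside it. Among the beta subunits only *Scn4b* lies outside that of its class, which ran from −0.35 to 0.07. The part of gene length in the ratios was not tested.

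**Figure D2:**
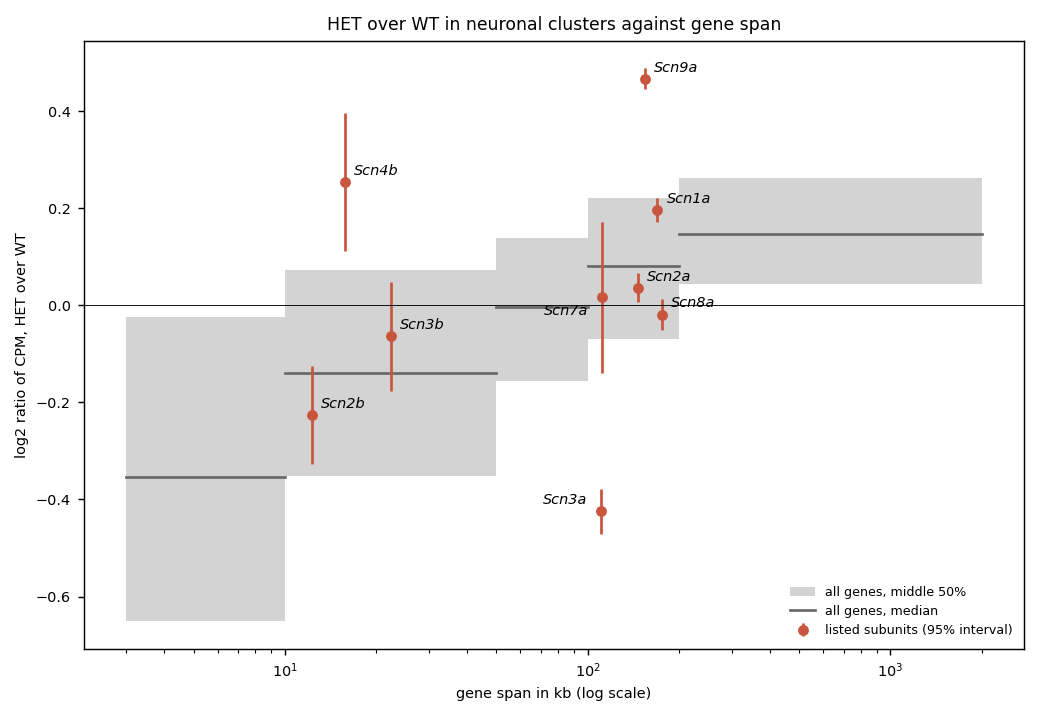
Log2 ratio of CPM, HET over WT, in neuronal clusters (vertical axis) against gene span in kb (horizontal axis, log scale), with the listed subunits as red points with 95% counting intervals. Grey blocks give the middle 50% and dark lines the median of genes with 200 or more UMIs in each class of span, rising from −0.35 under 10 kb to 0.15 over 200 kb. *Scn9a* and *Scn4b* stand above and *Scn3a* below the block of their class.

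**Figure D3:**
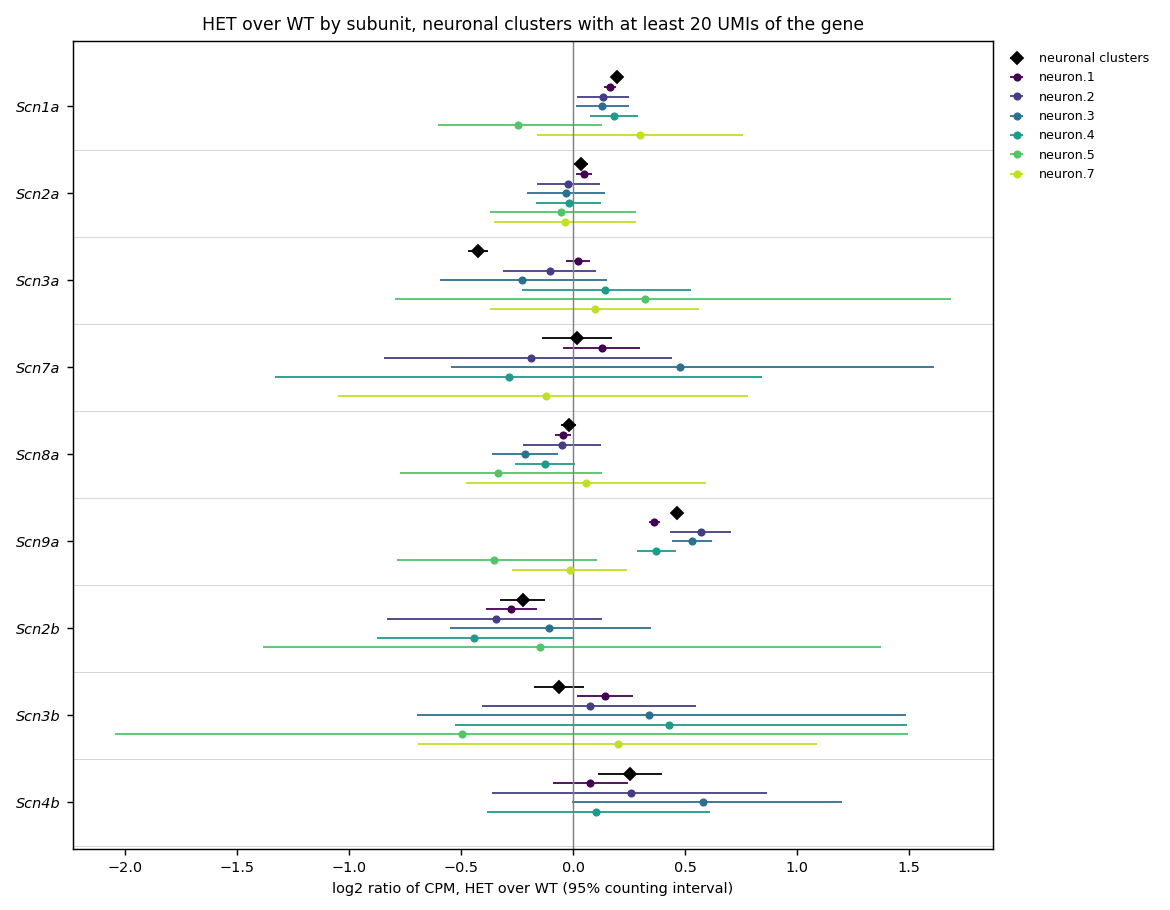
Log2 ratio of CPM, HET over WT (horizontal axis, with 95% counting intervals as bars) of each subunit over all neuronal clusters (black diamonds) and in each neuronal cluster with 30 or more nuclei per library and 20 or more UMIs of the gene (coloured points). For *Scn3a* the diamond at −0.42 lies below the value of every cluster shown, and for *Scn9a* neuron.5 and neuron.7 lie apart from the other 4 clusters.

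The share of *Scn1a* among the UMIs of the 6 listed alpha subunits does not depend on the total of a library, and over all neuronal clusters it was nearly the same in both. Such shares are of UMIs and not per length, and the genes span 111 to 176 kb. In neuronal clusters *Scn1a* made up 25.2% (25.0 to 25.5) of 101149 alpha subunit UMIs in WT and 25.5% (25.3 to 25.8) of 102813 in HET, a difference of 0.32 percentage points (−0.06 to 0.69). In neuron.1 the shares were both 25.5%. In some classes of nuclei by transmitter or marker gene, defined further on, the *Scn1a* share was smaller in HET, with differences of −1.09 points (−1.86 to −0.32) in inhibitory, −1.53 in glycinergic, −3.59 in *Pvalb* and −7.30 in *Chat* nuclei. In oligodendrocytes on which both labels concur it was −6.10 points. In each of these the *Scn9a* share was larger in HET, and the *Chat* nuclei need not come from the same clusters in both libraries. Over all neuronal clusters *Scn9a* took 30.3% in WT and 37.0% in HET, a difference of 6.70 points (6.29 to 7.11). Its share was larger in HET by 4.50 points in neuron.1, 6.49 in neuron.2, 9.29 in neuron.3 and 5.49 in neuron.4. *Scn2a* took 18.3% and 16.6% in WT and HET, *Scn8a* 16.3% and 14.2% and *Scn3a* 9.23% and 6.08%. For each 100 UMIs of *Scn1a* there were 120 UMIs of *Scn9a* in WT and 145 in HET. The *Scn8a* share was also smaller in HET within clusters, by 2.27 points in neuron.1, 1.88 in neuron.2, 4.77 in neuron.3 and 3.43 in neuron.4.

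The makeup of the alpha subunits differed between the neuronal clusters. *Scn9a* took the largest share in neuron.1, neuron.3, neuron.4 and neuron.7 in both libraries. *Scn1a* led in neuron.2, with 31.1% in WT and 30.9% in HET, *Scn2a* led in the granule cell-like neuron.5, with 33.1% and 36.7%, and *Scn3a* led in neuron.6, with 55.8% and 57.0%. In neuron.8, with 44 WT and 9 HET nuclei, *Scn1a* took 28.4% and *Scn9a* 26.1% in WT, and 25.8% and 38.4% in HET. In the serotonergic-like neuron.7, *Scn1a* made up only 11.1% (8.95 to 13.6) in WT and 13.3% (10.7 to 16.3) in HET. These clusters were defined from all genes, the subunits included, so the differences between them are a description.

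**Figure D4:**
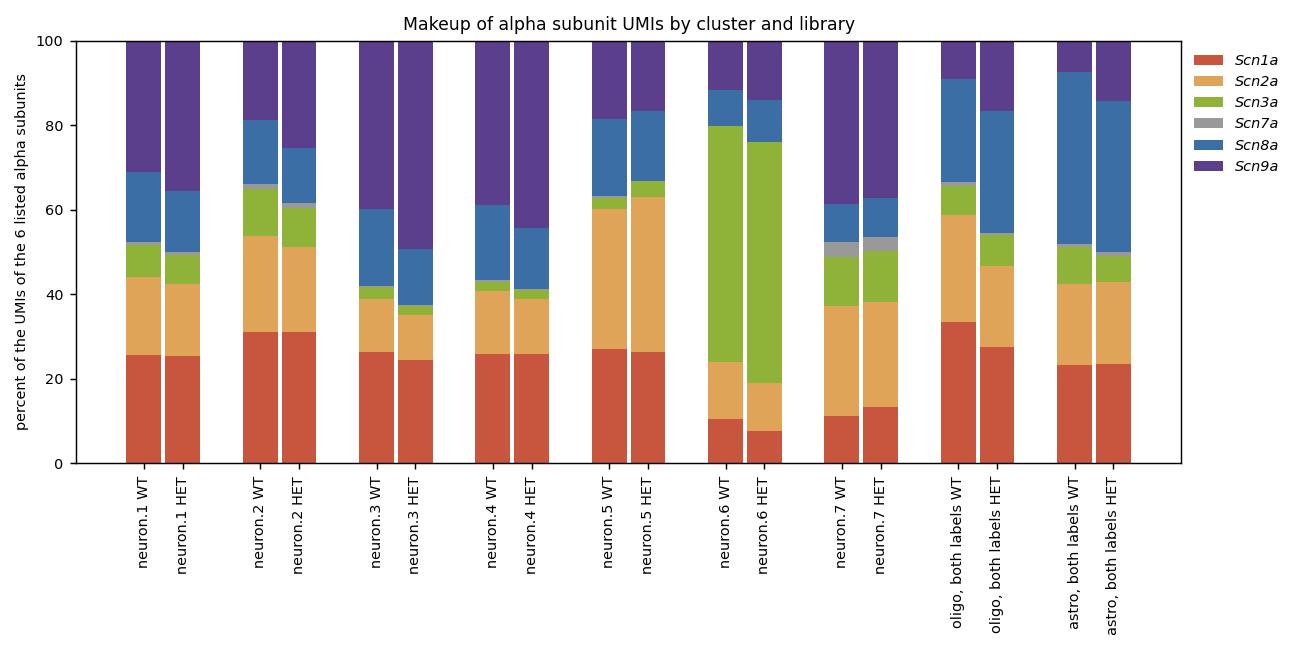
Percentage of the UMIs of the 6 listed alpha subunits (vertical axis) that each subunit takes in WT and HET nuclei of neuron.1 to neuron.7 and in the oligodendrocytes and astrocytes on which both deposited labels concur (horizontal axis). The *Scn1a* share is nearly the same in WT and HET in each neuronal cluster with many UMIs, *Scn3a* fills over 50% of neuron.6, whose HET bars rest on 79 UMIs, and *Scn8a* takes a larger share in astrocytes than in neurons.

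Outside the neurons, *Scn8a* took the largest share of alpha subunit UMIs in astrocytes. In the nuclei that both labels call astrocytes it made up 40.7% (36.4 to 45.1) of the alpha subunit UMIs in WT and 35.7% (32.2 to 39.3) in HET, against 16.3% and 14.2% in neuronal clusters. Free RNA from broken neurons can give UMIs in any nucleus, so shares of nuclei with a UMI were compared at 1000 UMIs per nucleus with those of genes restricted to neurons. At that depth, 9.72% (7.44 to 12.4) of WT and 9.85% (7.75 to 12.3) of HET astrocytes held a UMI of *Scn8a*. The neuron-restricted genes *Rbfox3*, *Slc17a6* and *Slc32a1* were found in 1.76%, 4.86% and 3.32% of WT and 2.80%, 4.02% and 2.60% of HET astrocytes, all with upper bounds below the lower bound of *Scn8a* in their library. The genes compared differ in neuronal level, with 278 CPM of *Scn8a* in WT neuronal clusters against 222, 73.6 and 43.3 CPM. In WT astrocytes *Scn8a* had 104 CPM against 14.6, 44.8 and 30.7 CPM for *Rbfox3*, *Slc17a6* and *Slc32a1*. *Scn1a*, *Scn2a* and *Scn9a*, higher than *Scn8a* in WT neuronal clusters, had 61.5, 54.9 and 28.4 CPM in the WT astro cluster, where *Scn8a* had 105 CPM. The shares were not scaled to neuronal levels and do not tell *Scn8a* RNA of astrocytes from free RNA, whose part was not tested. Without thinning, *Scn8a* was found in 26.7% of WT and 30.0% of HET astrocytes, at median depths of 2896 and 3316 UMIs. The CPM of *Scn8a* in these astrocytes, 104 in WT and 101 in HET, was the same within counting error.

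In oligodendrocytes on which both labels concur, *Scn8a* and *Scn9a* differed between the libraries and *Scn1a* and *Scn2a* did not beyond counting error. *Scn8a* had 54.9 CPM in WT and 75.5 CPM in HET, which is a log2 ratio of 0.46 (0.26 to 0.66), and *Scn9a* 20.5 and 43.8 CPM, a log2 ratio of 1.10 (0.79 to 1.41). *Scn1a* had 75.6 and 72.0 CPM, a log2 ratio of −0.07 (−0.25 to 0.11). The neuronal gene *Rbfox3* moved with *Scn9a*, at 15.2 CPM in WT and 37.3 CPM in HET oligodendrocytes, whereas *Slc17a6* had 41.7 and 40.7 CPM and *Slc32a1* 33.9 and 23.0 CPM. At 1000 UMIs per nucleus, *Scn9a* was found in 1.94% (1.35 to 2.70) of WT and 4.73% (3.91 to 5.66) of HET oligodendrocytes, against 4.53% and 4.33% for *Slc17a6*, so it was below *Slc17a6* in WT and their intervals overlap in HET. *Scn8a* was found in 4.99% (4.02 to 6.11) and 6.87% (5.88 to 7.96) of them, above the 3 neuronal genes in HET and overlapping *Slc17a6* and *Slc32a1* in WT. In astrocytes *Scn9a* had 19.1 and 40.8 CPM and *Rbfox3* 14.6 and 31.8 CPM. The part of free RNA in these values was not tested.

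Nuclei of neuronal clusters were also divided by transmitter, counting a nucleus in a class when its genes held 5 or more UMIs and no fewer than 5 times the UMIs of the opposite class. The glutamatergic genes were *Slc17a6*, *Slc17a7* and *Slc17a8*, and the inhibitory genes *Slc32a1*, *Gad1*, *Gad2* and *Slc6a5*. The rule gave 134 WT and 225 HET glutamatergic and 1107 WT and 785 HET inhibitory nuclei, while only 2 of 5776 non-neuronal nuclei passed as glutamatergic and 0 as inhibitory. *Scn1a* did not differ between these classes beyond counting error under this rule. It had 474 CPM (450 to 499) in glutamatergic and 478 CPM in inhibitory nuclei of WT, a log2 ratio of inhibitory over glutamatergic of 0.01 (−0.07 to 0.10). In HET it had 537 and 531 CPM, a log2 ratio of −0.02 (−0.09 to 0.05). Under a looser rule, 1 UMI of a class and none of the other, the ratio was 0.04 (0.00 to 0.09) in WT and 0.05 (0.01 to 0.09) in HET, above 0 in both. Under the first rule *Scn2a* gave −0.04 (−0.14 to 0.07) in WT and 0.02 (−0.08 to 0.11) in HET. Under the looser rule it gave −0.09 (−0.14 to −0.04) in WT and −0.06 (−0.11 to −0.01) in HET, below 0 in both. *Scn9a* was higher in inhibitory nuclei of WT, with a log2 ratio of 0.25 (0.17 to 0.33), and in HET the ratio was 0.03 (−0.03 to 0.09), or 0.16 (0.12 to 0.19) under the looser rule. *Scn3a* had opposite signs in the libraries, −0.34 (−0.49 to −0.18) in WT and 0.55 (0.37 to 0.74) in HET, as its glutamatergic level was 138 CPM in WT and 73.3 CPM in HET. The glutamatergic nuclei came from different clusters, with 6 WT and no HET nuclei from neuron.6, where *Scn3a* was highest, and 2.24% of WT and 12.4% of HET nuclei from neuron.3, where *Scn9a* was highest. *Scn4b* was lower in inhibitory nuclei of both libraries under the first rule. It had 14.3 against 24.6 CPM in WT and 16.2 against 29.0 CPM in HET. The log2 ratios were −0.79 (−1.17 to −0.39) and −0.84 (−1.19 to −0.49). The looser rule gave −0.18 (−0.43 to 0.08) in WT, an interval that includes 0, and −0.31 (−0.55 to −0.08) in HET.

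Within the inhibitory nuclei, those with at least 3 UMIs of the glycine transporter gene *Slc6a5* had more *Scn1a* than those with none. The level was 504 CPM in 638 glycinergic nuclei against 410 CPM in 136 nuclei without *Slc6a5* in WT, or 1.23-fold, and 572 CPM in 354 against 462 CPM in 181 nuclei in HET, or 1.24-fold. *Scn9a* went the same way, at 648 against 446 CPM in WT and 950 against 631 CPM in HET, as did *Scn8a*, at 322 against 270 CPM in WT and 347 against 237 CPM in HET. *Scn2a* and *Scn3a* were lower in the glycinergic nuclei, at 294 against 346 CPM and 95.1 against 144 CPM in WT, and at 292 against 361 CPM and 79.3 against 147 CPM in HET. *Scn3b* was lower and *Scn4b* higher in them, at 0.376-fold and 2.35-fold in WT and 0.462-fold and 2.55-fold in HET. Glycinergic nuclei were deeper, with a median of 14632 UMIs in WT and 15318 in HET against 8686 and 9394, and the part of depth was not tested. These directions were the same in both libraries.

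Nuclei with at least 3 UMIs of *Pvalb*, a marker of fast-spiking neurons, had 517 CPM (476 to 560) of *Scn1a* in WT and 545 CPM (486 to 610) in HET, from 64 and 29 nuclei. Their *Scn9a* was 702 CPM (655 to 752) in WT and 1112 CPM (1027 to 1202) in HET. The 42 WT and 35 HET nuclei with at least 3 UMIs of *Tph2*, which encodes the enzyme of serotonin synthesis, had the lowest *Scn1a*, at 161 and 210 CPM, and kept a high *Scn9a*, at 566 and 605 CPM. In the 46 WT and 32 HET nuclei with at least 3 UMIs of *Chat*, the enzyme of acetylcholine synthesis, *Scn1a* was 389 CPM (356 to 424) in WT and 301 CPM (258 to 349) in HET. This was the reverse of the direction over all neuronal clusters, in nuclei whose median depth was 27148 UMIs in WT and 17124 in HET. *Chat* was highest in neuron.8, at 158 CPM, a cluster of 44 WT and 9 HET nuclei. At most 9 of the 32 HET *Chat* nuclei could thus come from it, and the part of cluster makeup was not tested.

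**Figure D5:**
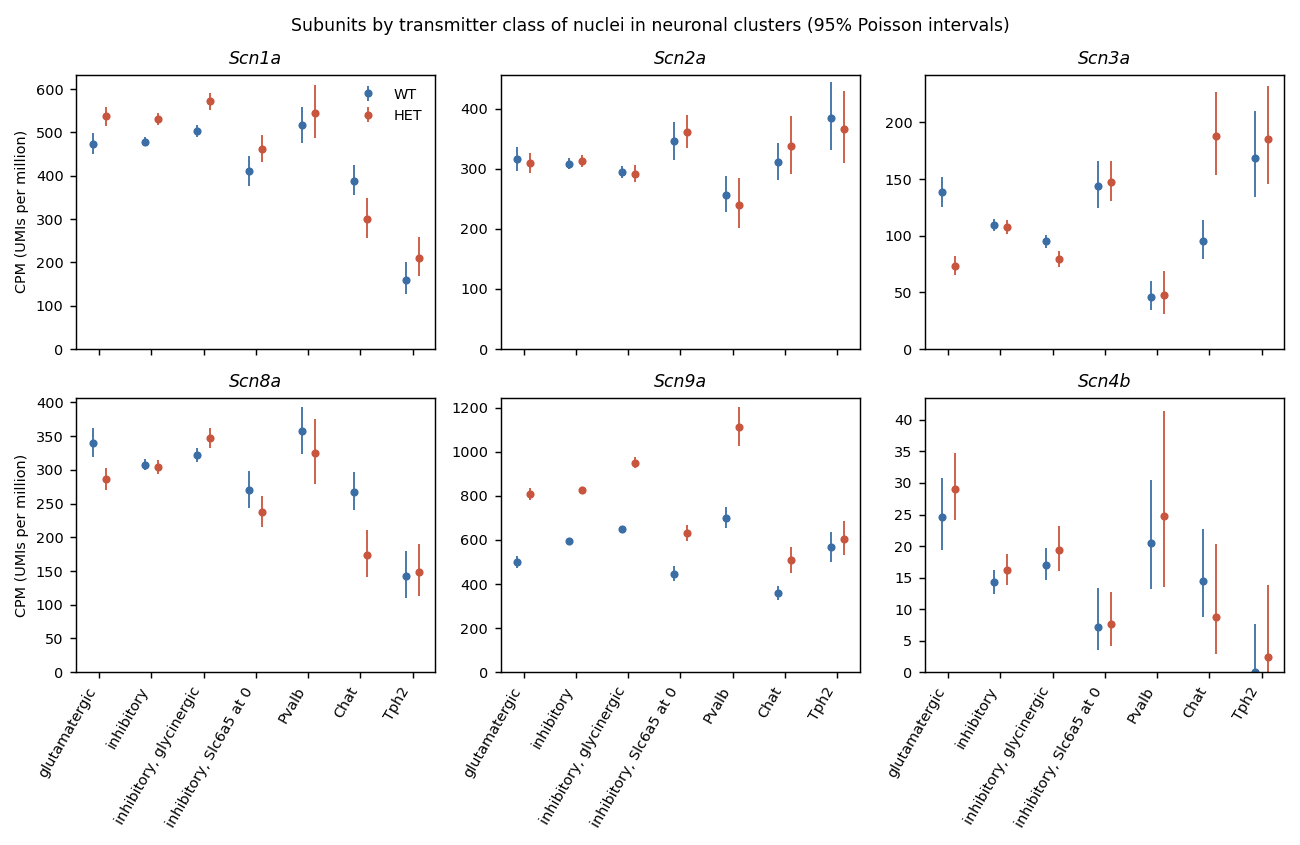
CPM of 6 subunits (vertical axis, linear, a different range in each panel) in nuclei of neuronal clusters classed by transmitter or marker gene (horizontal axis), with WT in blue, HET in red and 95% Poisson intervals as bars. *Scn1a* is level between glutamatergic and inhibitory nuclei, higher in glycinergic nuclei than in inhibitory nuclei with *Slc6a5* at 0, and lowest in *Tph2* nuclei.

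Of the listed alpha subunits, 5 lie together on chromosome 2, from 65457118 to 66784914 of GRCm38, and only *Scn8a*, on chromosome 15, lies elsewhere. The 3 beta subunits lie on chromosome 9, where *Scn2b* (chr9:45117782-45130070) and *Scn4b* (chr9:45138395-45154152) are close neighbours. The genes of the chromosome 2 stretch did not move as 1 block. *Scn9a* and *Scn1a* had ratios of 0.47 and 0.20, *Scn2a* 0.04, *Scn7a* 0.02 and *Scn3a* −0.42. *Csrnp3* and *Ttc21b*, which lie between *Scn2a* and *Scn1a*, had 0.07 and 0.09. Over the 15 measured genes of the stretch, the lowest ratio was −0.46 in *Galnt3*, with 75 WT and 49 HET UMIs. The highest was 1.95 in Gm13618, with 28 WT and 97 HET UMIs. An antisense gene, Gm13629, starts 40 bases from the annotated start of *Scn1a* on the opposite strand and overlaps 65.9 kb of *Scn9a*. It had 265 CPM in WT and 310 CPM in HET neuronal clusters, which is a log2 ratio of 0.23 (0.20 to 0.26), and Gm13630, inside *Scn1a* on the opposite strand, had 33.7 and 44.0 CPM. Whether the counting used the strand is not given in the sources used here, so the UMIs of *Scn9a* and *Scn1a* are uncertain by those of the genes that overlap them.

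The other subunits and known partners of the channels were taken from a written list of 27 genes, of which 24 had at least 20 UMIs in neuronal clusters. Of these, 14 were higher and 10 lower in HET, with a median log2 ratio of 0.07, beside 8993 higher, 12162 lower and a median of −0.08 over all 21155 genes with at least 20 UMIs. Of the other subunits, the muscle channel *Scn4a* and the sensory neuron channels *Scn10a* and *Scn11a* had 3 to 12 UMIs in a library. Of the rest, the highest ratios were those of *Prrt2*, a presynaptic protein that binds the channel, at 0.74 from 28 WT and 42 HET UMIs, the splicing factor *Rbfox3* at 0.42 and *Tnr*, a matrix protein of the node, at 0.37. The 7 genes that anchor the channel at the initial segment and node were 5 higher and 2 lower, with *Ank3*, the ankyrin G gene that holds it there, at 0.01 (−0.01 to 0.02). *Rbfox3* and *Tnr* span 422 and 408 kb and *Prrt2* 3.68 kb.

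Across the 12 clusters, *Ank1*, which encodes ankyrin R, was the gene whose levels followed those of *Scn1a* most closely, with Pearson's r of log2(CPM + 1) of 0.98 in WT and 0.99 in HET. Others among the 10 genes most alike were A530058N18Rik (0.97 and 0.97), *Rbfox1* (0.96 and 0.96), *Atp8a2* (0.95 and 0.96), *Bend6* (0.95 and 0.98), *Pcnx2* (0.95 and 0.95), *Grin1* (0.96 and 0.95), *Unc80* (0.95 and 0.96) and Mir124a-1hg (0.98 and 0.95). Genes were ranked by the lower r of both libraries among 11543 with at least 1000 UMIs, and the points share the depth, the free RNA and the split between neurons and other cells. When only the 6 neuronal clusters were used, none of the 10 genes was among the 10 most like *Scn1a*. By the same measure *Scn8a* ranked 58th, *Scn9a* 103rd, *Scn2a* 192nd and *Scn2b* 856th in likeness to *Scn1a*, and the other members ranked lower, from 1456th for *Scn3a* to 4391st for *Scn3b*.

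The same ranking named the genes most like each other subunit. For *Scn2a* they were *Rims1*, *Snap25* and *Srrm3*, for *Scn8a* *Cadps*, *Ttc21b* and *Camta1*, for *Scn3a* *Usp29*, *Nyap2* and *Ahi1*, and for *Scn9a* its overlapping antisense gene Gm13629 (0.96 and 0.97), *Fgf12*, whose protein binds sodium channels, and *Crmp1*. For *Scn7a* they were *Golgb1*, *Scml4* and Gm16083 (0.81 or more). The beta subunits gave *Cars*, *Fam57b* and *R3hdm2* for *Scn2b* (0.86 or more), *Bex3*, *Tspan18* and *Tusc3* for *Scn3b* (0.79 or more) and Gm10684, *Prim1* and the neurofilament gene *Nefm* for *Scn4b* (0.79 or more). *Scn3b* and *Scn4b* had the fewest UMIs of the listed beta subunits in neuronal clusters.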

How the data were processed

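Nuclei from 1 WT and 1 HET brainstem were profiled with 10x Genomics 3′ chemistry. The authors aligned and counted reads with Cell Ranger (version not given in the sources used here) on mm10. In Seurat 4.1 they removed nuclei with under 1000 genes or much mitochondrial RNA, and mitochondrial, hemoglobin and some other genes. The deposited counts are raw UMIs per gene and nucleus. The doublet score is the authors' deposited value, and clusters, subclusters and the second label were used as deposited. The subunits, lists and rules were chosen with earlier results of these data known. UMIs were summed over nuclei of a cluster or class and divided by their total (70301390 UMIs in WT and 66176778 in HET over all nuclei). Ratios carry exact conditional, CPM exact Poisson and shares Clopper-Pearson intervals at 95%, and the interval of a difference of shares combines both shares' bounds. Free RNA, PCR and differences between mice are outside them. Thinned shares are those expected on drawing 1000 UMIs per nucleus, and no nucleus was below that. Positions are from GENCODE vM21 (GRCm38), found for 24921 genes. Genes to be named were the listed subunits, every other subunit, the 3 highest and 3 lowest of the other partners and the genes most like each subunit, and some of these are not reported here. *Ank3*, *Csrnp3*, *Ttc21b*, *Galnt3*, Gm13618, Gm13629 and Gm13630 were named after their values were seen. Every deposited nucleus was listed as a singlet by the authors, and no further doublet caller was run. On simulated Poisson counts with 200 of 25556 genes changed 1.5-fold, the direction was right for 100% and the interval held the ratio for 96%. The simulated counts follow the model that the interval assumes and hold no variation between nuclei or mice. They check the calculation and not how the interval covers real data. Scripts ran in Python 3.11.15 with scipy 1.17.1, numpy 2.4.6, pandas 2.3.3 and, for figures, matplotlib 3.10.9. The alternatives are named in the closing section.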

Additional observations from a re-analysis of the deposited data

Results flagged for a closer look

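For *Scn8a* and *Scn9a*, the counting interval of the HET over WT ratio lay wholly above 0 in at least 1 cluster and wholly below 0 in another. The difference between the clusters was not tested, and with 1 library per genotype it could not be. *Scn8a* had a log2 ratio of −0.045 in neuron.1 and −0.21 in neuron.3 and of 0.47 in oligo, where WT had 55.1 CPM and HET 76.6 CPM. *Scn9a* had a log2 ratio of −1.51 in fibro, where 50 WT UMIs gave 109 CPM and 16 HET UMIs gave 38.2 CPM. In the other clusters with such an interval it was positive, at 0.36 in neuron.1, 0.57 in neuron.2, 0.53 in neuron.3, 0.37 in neuron.4, 0.55 in astro, 1.11 in oligo, 0.75 in micro, 2.46 in epend.1 and 3.18 in endo. The values of epend.1 and endo rest on 37 and 8 UMIs in WT and 109 and 35 in HET. The second label named the cluster's own type for 60.8% of the endo nuclei, and called 41.7% of the fibro nuclei neurons.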

How the results depend on the processing

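No paired analysis was possible because each genotype has 1 library, and for the same reason no library could be left out. *Scn1a* and *Scn9a* were higher and *Scn2b* lower in HET neuronal clusters under each of 10 alternatives, with log2 ratios of 0.15 to 0.29, 0.36 to 0.56 and −0.30 to −0.13. The *Scn1a* ratio was 0.15 with equal cluster weights, 0.29 with the median ratio of genes set to 0 and 0.17 in neuron.1 only. *Scn3a* turned to 0.014 with equal cluster weights and 0.023 in neuron.1 only. *Scn3b*, with −0.06 in the report, ran from −0.17 to 0.14, and *Scn8a* from −0.07 to 0.08. The median ratio of the other 8 subunits, −0.00, became 0.093 with the median of genes set to 0 and −0.076 as a mean over nuclei. The count of subunits past a log2 ratio of 0.322, 2, was 1 with equal cluster weights, with equal subcluster weights, in neuron.1 only, without small neuronal clusters and neuron.5, and without neuron.6, since *Scn3a* dropped out, and was 0 at 1.5-fold, which 17.8% of genes passed. It was 3 with the median of genes set to 0, where *Scn4b* joined. The difference in the *Scn1a* share of alpha subunit UMIs, 0.32 points, was −0.14 with equal cluster weights, −0.24 with equal subcluster weights, −0.21 without small neuronal clusters and neuron.5, −0.25 without neuron.6, −0.60 with *Scn3a* left out of the sum and 4.35 with *Scn9a* left out of it. The last 3 were chosen after seeing the data. The median of the partner list, 0.07, was 0.13 with equal cluster weights, 0.17 with the median of genes set to 0, and 0.12 without the top 5% of doublet scores and in neuron.1 only. *Scn1a* in oligo was 16.2% of its neuronal level in CPM and 22.2% as a thinned share. Of the 10 genes most like *Scn1a*, 3 remained with Spearman correlation, 3 with subclusters as points and 0 with neuronal clusters only. The cause of these moves was not tested beyond what is said here. The median ratio of genes with at least 200 UMIs was −0.09, a shift below 0.1. Members with few UMIs are limited by depth, as *Scn7a* and *Scn4b* held 650 to 841 UMIs in a library's neuronal clusters.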
